A study of Mus musculus with 2 samples.

Results

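Mirtrons are microRNA precursors made by splicing. A short intron is cut out, its lariat is opened and it folds into a hairpin that Dicer can process, so the nuclear Drosha and DGCR8 cut used by other microRNAs is not needed. In tailed mirtrons only 1 end of the hairpin lies at a splice site and the rest of the intron has to be trimmed from the other end. The mouse microRNA genes numbered Mir6896 to Mir7094 were annotated largely as hairpins of this kind. All microRNA genes of the deposited tables whose symbol carries a number in that range were taken, with any letter or copy suffix, which gave 178 of 1973 genes. The rule reads the symbol only.

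The samples were 2 midbrains of mouse strain B6NCrl on postnatal day 0, each from a single animal, pup 1 and pup 3, with no treatment named in the labels and sex not collected. The labels name different pups but give 1 shared donor identifier, and the libraries were treated here as separate animals. MicroRNA sequencing of total RNA with a size range of under 30 bases assigned 2337113 reads of pup 1 and 3195277 of pup 3 to the own strand of a gene. The unit CPM divides a hairpin's own-strand reads by that total, and a single read is worth 0.428 CPM in the first library and 0.313 CPM in the other. A hairpin with 0 reads may still hold up to 3, equal to 1.28 CPM for pup 1 or 0.939 CPM for pup 3. Reads without molecular identifiers are not independent molecules, so intervals and these limits cover counting error only. Of 11 listed brain hairpins 10 had a row and 7 reached 10 counts in each library, led by Mir137 at 24297 CPM. Mir153, Mir128-1, Mir128-2 and Mir132 lay between 9302 and 2378 CPM, and Mir9-3 was at 389 CPM. The other brain hairpins with a row had few counts, with Mir124a-1, Mir124a-2 and Mir124a-3 at 11.6, 3.26 and 2.17 CPM and Mir9-2 at 1.05 CPM. A read with several equally good positions is given to no gene, so these values can understate microRNAs with several gene copies. They do not show that the mature microRNAs are scarce, and the part of such reads was not tested. The muscle hairpins Mir1a-1, Mir133a-1 and Mir133a-2 were at 0 counts, Mir206 was at 19.7 CPM and Mir1a-2 had no row. Mir133b had 0 counts in pup 1 and 1 in pup 3. The limit on microRNAs with several gene copies also holds for Mir1a and Mir133a, so their 0 counts do not show absence. Hairpins known from other cell types were also read, with the endothelial Mir126a at 33142 CPM, above Mir137, and the mural-cell Mir143 at 6990 CPM. The liver hairpin Mir122 was at 53.3 CPM and the red cell hairpin Mir451a at 58.7 CPM.

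The positions of the hairpins were described against the GENCODE M21 gene models on GRCm38. They come from annotation and not from the reads. As the set was annotated largely as mirtrons, a fit to splice sites is no independent check of that label. Only 15 of the 178 hairpins (8.43%) filled an intron from the donor, its first base, to the acceptor, its last base, with both hairpin ends within 5 bases of the splice sites of any annotated same-strand intron. Another 151 (84.8%) touched the acceptor only, which is the geometry of a 5′-tailed mirtron, and 4 touched the donor only. A further 7 lay in an intron with neither end at the splice site of any annotated intron, and for Mir7025 no same-strand intron was found. In 6 of these 7 the hairpin ran 6 or 7 bases past the acceptor into the exon. Most members thus had the annotated position of tailed and not of whole-intron mirtrons, and are called tailed below by position only. How they are processed was not tested. The median host intron of 412 bases was far longer than the median hairpin of 66 bases.

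Among the 151 acceptor-only hairpins the intron sequence upstream of the hairpin ran from 7 to 36205 bases, with a median of 418 bases. Tails were measured in the intron leaving the fewest bases outside the hairpin. For Mir7051 that intron, with 251 bases upstream and 9 downstream, is not the one whose acceptor it touches. In 42 of them this tail was at most 100 bases, and in 44 it was over 1000 bases. The fit to the acceptor was exact for 164 of the 178 members (92.1%), whose last base was the last base of the intron. Outside the set, 41 of 1716 placed hairpins (2.39%) had an end within 5 bases of a splice site, against 170 of 178 members (95.5%). In the plot of splice position the acceptor-only bar stands over all others.

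**Figure D1:**
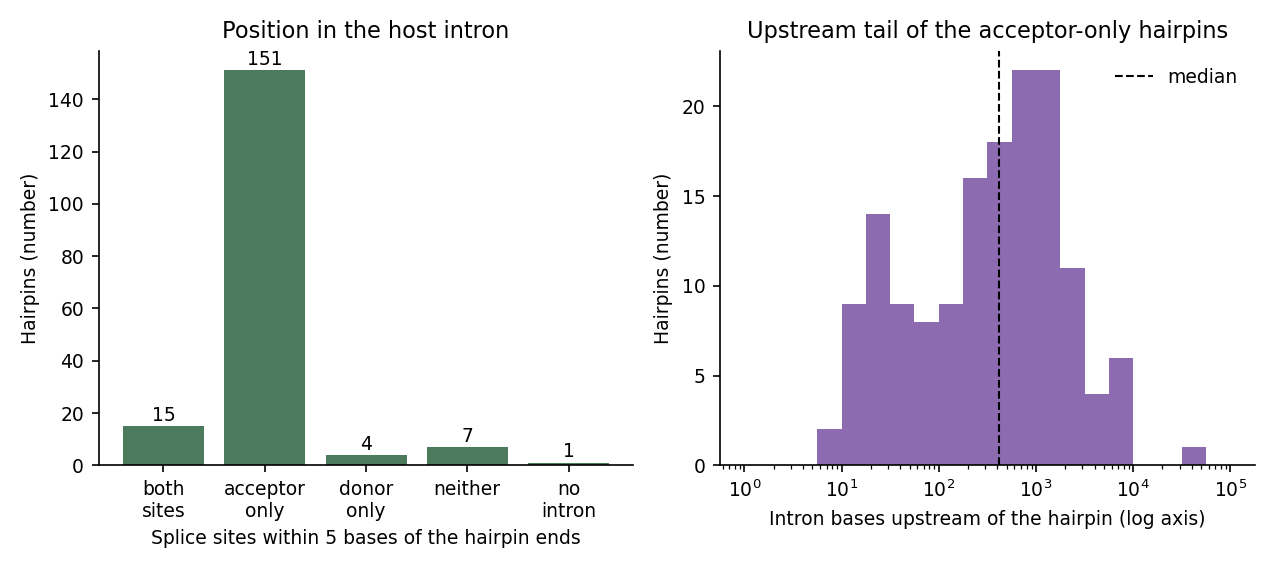
Left, number of hairpins by the splice sites lying within 5 bases of their ends, 178 hairpins in all. Right, for the 151 acceptor-only hairpins, the number of intron bases upstream of the hairpin on a log axis, with the median of 418 bases as a dashed line.

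The sequences show the splice sites directly. RefSeq (GRCm38.p6) held a hairpin for 161 of the 178 members and at least a mature arm for 163. All 161 hairpins had the same start and end in RefSeq and in GENCODE. The 3 most abundant members are whole introns, shown 5′ to 3′ with the intron's first and last dinucleotide in capitals. Mir6944 lies on chromosome 13 from 55477681 to 55477776 (minus strand), Mir7080 on chromosome 8 from 123130106 to 123130172 (plus strand) and Mir6958 on chromosome 15 from 89185465 to 89185537 (minus strand).
Mir6944 hairpin: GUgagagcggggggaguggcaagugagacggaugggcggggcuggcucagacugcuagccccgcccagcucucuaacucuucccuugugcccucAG
Mir7080 hairpin: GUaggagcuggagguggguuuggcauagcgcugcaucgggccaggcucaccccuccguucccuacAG
Mir6958 hairpin: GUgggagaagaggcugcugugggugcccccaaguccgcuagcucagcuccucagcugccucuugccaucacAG

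The next 3 by level are tailed, and only the AG of the acceptor is capitalised because the donor lies upstream of the hairpin. Mir6897 lies on chromosome 1 from 36144252 to 36144313 (minus strand), Mir6928 on chromosome 11 from 101030340 to 101030409 (plus strand) and Mir7083 on chromosome 9 from 21809941 to 21810000 (minus strand).
Mir6897 hairpin: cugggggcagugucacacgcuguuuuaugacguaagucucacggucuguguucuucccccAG
Mir6928 hairpin: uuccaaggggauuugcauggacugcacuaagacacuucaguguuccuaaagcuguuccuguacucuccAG
Mir7083 hairpin: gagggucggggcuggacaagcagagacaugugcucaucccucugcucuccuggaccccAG

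Mir6977, on chromosome 17 from 56418846 to 56418909 (minus strand), was the most abundant hairpin of the opposite geometry. It starts with the GU of the donor and stops 15 bases before the acceptor, and its first dinucleotide is in capitals.
Mir6977 hairpin: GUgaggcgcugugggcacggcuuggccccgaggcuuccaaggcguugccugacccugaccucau

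Over the set, 149 of 161 hairpins (92.5%) ended in AG and 27 (16.8%) began with GU. Among 825 other mouse hairpins of RefSeq, 71 (8.61%) ended in AG and 50 (6.06%) began with GU. The AG share of the set largely repeats the exact fit to the acceptor given above and is not separate from it. The 22 RefSeq symbols numbered in the range without a row among the 1973 genes were left out of both groups. Both pairs of letters were present in 10 of the 12 whole-intron members with a sequence, and AG ended 137 of the 138 acceptor-only ones. The annotated 3p arm reached the last base of the hairpin in 114 of 153 members (74.5%), against 121 of 520 other hairpins (23.3%). Where such a hairpin is flush with the acceptor, the 3p arm ends on the last base of the intron.

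The arms differed in their bases. The 3p arms were 71.7% pyrimidine, with 40.7% C and 31.0% U over 155 arms, against 53.7% pyrimidine over 554 other 3p arms. The 5p arms were 45.4% G over 157 arms, against 29.0% over 550 others. As background, introns carry a pyrimidine-rich tract just before the acceptor. Hairpins of the set had a median length of 66 bases, against 94 bases for all other genes, and a median GC content of 57.8%. The 41 other genes at a splice site were close to the set, at 67 bases and 57.1%.

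**Figure D2:**
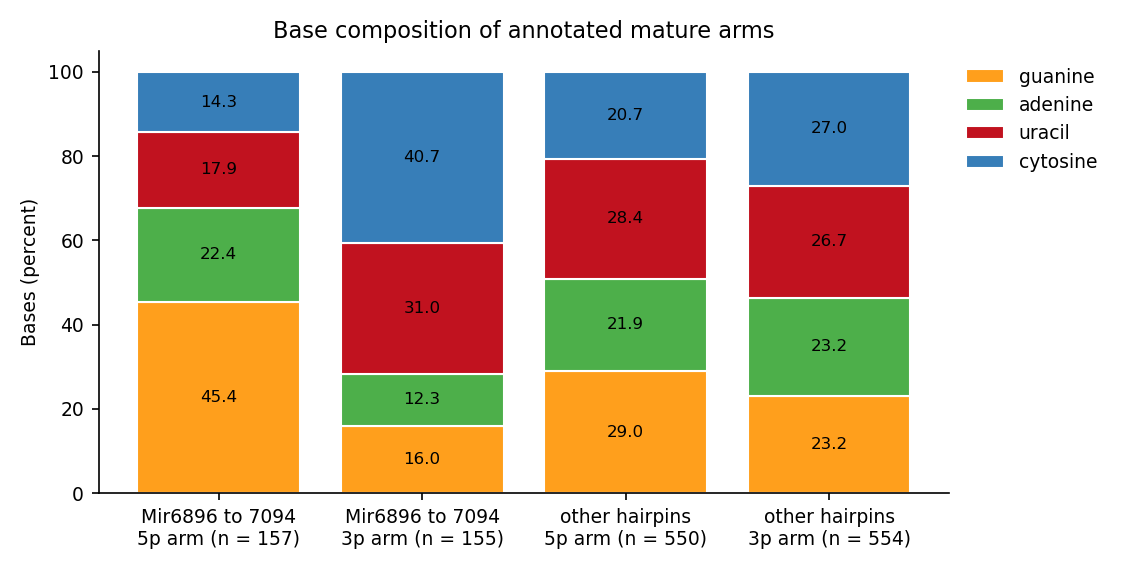
Base composition, in percent of all bases, of the annotated 5p and 3p mature arms of the set and of other mouse hairpins in RefSeq. The 5p arms of the set are rich in guanine (45.4%) and the 3p arms in cytosine (40.7%).

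In the newborn midbrain the set was read at very low levels. All 178 hairpins together took 531 counts in pup 1 and 677 counts in pup 3. Their share of own-strand counts was 0.0227% in pup 1, with a Clopper-Pearson 95% interval from 0.0208% to 0.0247%. In pup 3 the share was 0.0212%, with an interval from 0.0196% to 0.0228%, which gave a mean of 0.0220% ± 0.00108 (SD, n = 2). The intervals of the pups overlapped. Every count lay on the own strand, and the opposite-strand column held 0 counts for the members in both pups.

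Reads were nevertheless spread over many members. At least 1 count in each library was found for 83 of 178 members (46.6%), against 28.3% of all 1973 genes. Only 8 members (4.49%) reached 10 counts in each library, here called detected, against 18.2% of all genes. Another 17 had counts in pup 1 only and 24 in pup 3 only, and 54 (30.3%) had 0 counts in both. The median level among the 83 was 1.38 CPM, against 25.4 CPM among the 559 genes seen in both libraries.

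These shares were also set beside genes of like uniqueness, since a read with several equally good positions is given to no gene. A run of at least 20 bases shared with another hairpin was found in 3 of 178 members (Mir7065, Mir6970 and Mir7094-2, named once their values were known) and in 926 other genes. Among the 790 other genes without such a run, 46.6% were seen in both libraries and 34.1% were detected. Among the 175 members without a run, 47.4% were seen in both libraries and 4.57% were detected. The part of shared sequence in the difference from all genes was not tested.

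Numbering neighbours fell on either side. Hairpins Mir3057 to Mir3113, also late additions to the annotation, were seen in both libraries in 42 of 50 cases and detected in 21, and their median level was 3.52 CPM. The median over the 178 members was 0.370 CPM. Hairpins Mir6335 to Mir6546 were seen in 6 of 91 cases and detected in 1. The 4 earlier-numbered mirtrons taken for comparison, a list chosen with earlier results of these data known, were all detected. Mir1224 in Vwa5b2 had 146 ± 23.8 CPM, Mir877 in Abcf1 132 ± 11.4 CPM, Mir1981 in Marc2 86.1 ± 0.788 CPM and Mir702 in Plod3 78.4 ± 22.8 CPM (SD, n = 2). Together these 4 took 1091 counts in pup 1 and 1336 in pup 3, more than all 178 members.

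**Figure D3:**
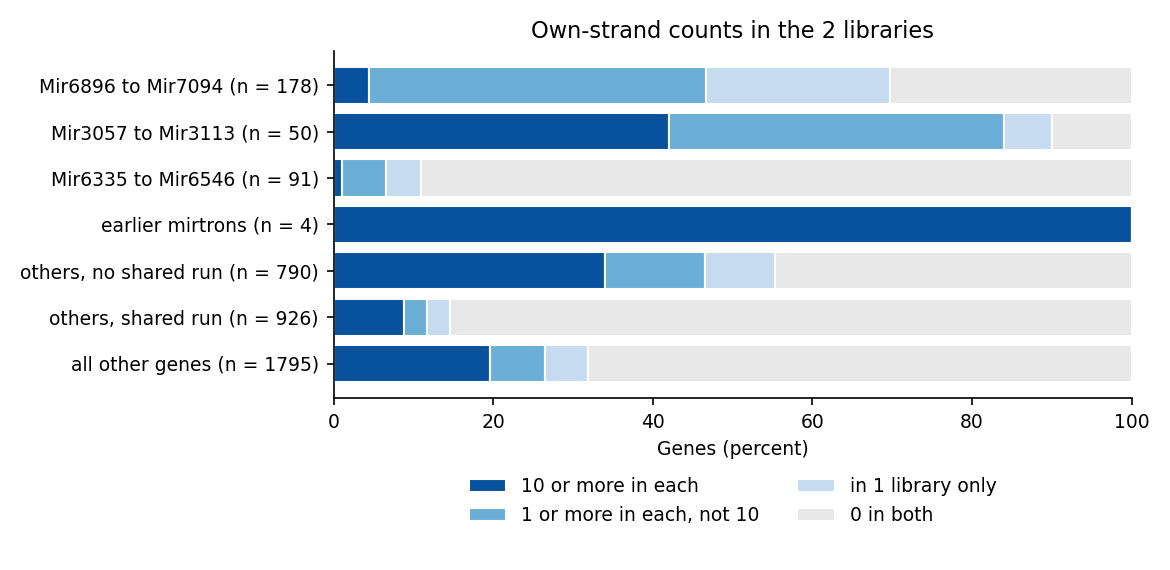
Percent of genes in each list by their own-strand counts in the 2 libraries, from 10 or more in each library (darkest) to 0 in both (grey). The set Mir6896 to Mir7094 is mostly light blue and grey, with 4.49% of genes in the darkest class.

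Mir6944 stood above the rest of the set. It is the whole 96-base intron of Dbn1, the gene of drebrin, an actin-binding protein of dendritic spines. It had 149 counts in pup 1 and 116 in pup 3, which is 63.8 and 36.3 CPM and averages 50.03 ± 19.4 CPM (SD, n = 2). This placed it at rank 255 among all genes, 6.18-fold above the second member, and it alone held 21.9% of the counts of the set. Its arms, with the seed at bases 2 to 8 in capitals, show the G-rich 5p and pyrimidine-rich 3p pattern (60.9% G and 73.9% pyrimidine). The tables count hairpins, so which arm the reads came from is not known from them.
mmu-miR-6944-5p: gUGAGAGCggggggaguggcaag
mmu-miR-6944-3p: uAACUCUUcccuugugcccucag

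The other detected whole-intron members were lower, and their counts in the pups lay near each other. Mir7080, the 67-base intron of Cpne7, a copine that binds membranes in response to calcium, had 21 counts in pup 1 and 23 in pup 3 (8.09 ± 1.26 CPM). Mir6958, the 73-base intron of Dennd6b, a regulator of Rab GTPases, had 19 and 25 counts (7.98 ± 0.216 CPM). Each of these introns also lies inside an exon of another annotated transcript of its host. In all 28 members lie inside an annotated same-strand exon, which for Mir6912 belongs to Scamp4 and not to the host listed for it. The part of such transcripts in the counts was not tested. Their arms follow, with seeds in capitals.
mmu-miR-7080-5p: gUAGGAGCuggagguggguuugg
mmu-miR-7080-3p: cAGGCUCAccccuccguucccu
mmu-miR-6958-5p: gUGGGAGAagaggcugcugugg
mmu-miR-6958-3p: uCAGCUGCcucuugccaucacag

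All 5 detected tailed members had tails of over 1000 bases, as had 44 of all 151 acceptor-only members. A link of tail length to level was not tested, and these 5 held few counts. Mir6897, in Uggt1, a folding sensor of the endoplasmic reticulum, had 14 counts in pup 1 and 25 in pup 3 (6.91 ± 1.30 CPM) behind a tail of 1718 bases. Mir6928, in Atp6v0a1, a subunit of the vacuolar proton pump, had 15 and 23 counts (6.81 ± 0.552 CPM, tail 1081 bases). Mir7083, in Dock6, an activator of Rac and Cdc42, had 13 and 25 counts (6.69 ± 1.60 CPM, tail 1773 bases). These 3 had more CPM in pup 3, and the counting interval of each ratio included equality.

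Mir7066, in Ncan, the gene of the brain matrix proteoglycan neurocan, had 12 counts in pup 1 and 11 in pup 3 (4.29 ± 1.196 CPM, tail 1357 bases). Mir6900, in Ndufa10, a subunit of respiratory complex I, had 11 and 10 counts (3.92 ± 1.12 CPM, tail 2838 bases). Both had fewer CPM in pup 3. Their arms and those of the other tailed members are shown because the seed is the part of a microRNA that pairs with its target messenger RNAs.
mmu-miR-6897-5p: uGGGGGCAgugucacacgcuguu
mmu-miR-6897-3p: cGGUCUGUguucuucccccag
mmu-miR-6928-5p: aGGGGAUUugcauggacugcacu
mmu-miR-6928-3p: aAGCUGUUccuguacucuccag
mmu-miR-7083-5p: uCGGGGCUggacaagcagaga
mmu-miR-7083-3p: uCUGCUCUccuggaccccag
mmu-miR-7066-5p: uGGGUUGGgaaaugaguagagg
mmu-miR-7066-3p: uCUACCCAuugccugccucccag
mmu-miR-6900-5p: uGCCAGGAgaagccuagagccguc
mmu-miR-6900-3p: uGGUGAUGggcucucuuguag

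Below the limit of 10 counts in each library, 7 further members complete the 15 of highest level. Mir6977, in Ptprs, a receptor phosphatase of growing axons, had 8 counts in pup 1 and 18 in pup 3. Mir6935, in Actg1, the gene of cytoplasmic gamma-actin, had 6 and 16 counts. Mir7035 in Rasa4 had 11 and 8 counts, just outside the limit, and Mir6951 in Azin1, which keeps ornithine decarboxylase active, had 6 and 13.

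At the bottom of these 15, Mir6988, in Syvn1, an endoplasmic reticulum ubiquitin ligase, had 7 counts in pup 1 and 10 in pup 3. Mir6945 in Pdlim7 had 4 and 14 counts, and Mir6934 in Tbc1d16, a Rab GTPase-activating protein, had 7 and 9. The 7 means lay between 2.91 and 4.53 CPM, and neighbours in this order did not differ beyond their spread. Among the 170 members that were not detected, the highest count was 11 in pup 1 and 18 in pup 3.

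**Figure D4:**
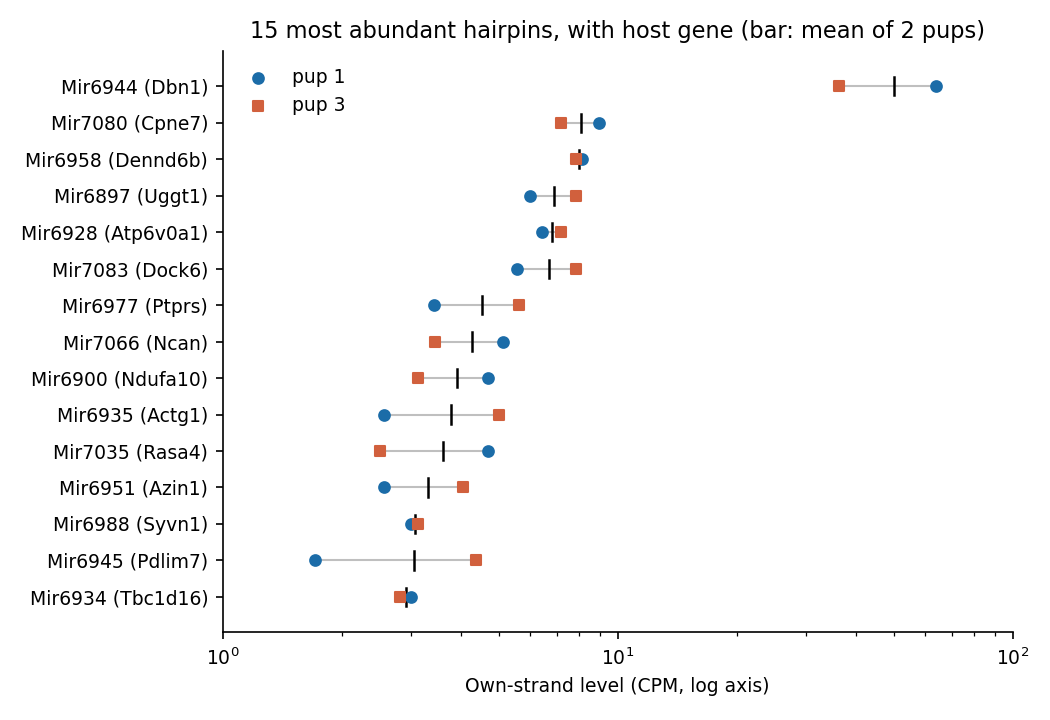
Own-strand level in CPM (log axis) of the 15 most abundant hairpins, with the host gene in brackets, for pup 1 (circles) and pup 3 (squares), and the mean as a black bar. Mir6944 lies at 36.3 and 63.8 CPM and the other 14 lie below 10 CPM.

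Levels were compared with hairpin position without a test. Whole-intron hairpins numbered 15 and held 385 of the 1208 counts of the set, of which Mir6944 made up 265. In this class 3 of 15 members were detected and 6 had 0 counts in both pups. The acceptor-only class held 776 counts over 151 members, with 5 detected, 71 seen in both libraries and 44 at 0 in both. With a tail of at most 100 bases, 20 of 42 members (47.6%) had counts in both libraries and 0 were detected. With a longer tail, 51 of 109 (46.8%) had counts in both libraries and 5 were detected.

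Hairpin length and GC content were described by level. The median length was 65 bases in the 8 detected members, 67 in the 75 seen but not detected, 66 in the 41 with counts in 1 library and 67.5 in the 54 at 0. Median GC content was 60.9%, 59.3%, 58.3% and 56.3% in the same order. The members lay in 173 host genes on 19 chromosomes, and 4 hosts held a pair of members. In Skiv2l, Mir6971 had 4 and 7 counts while Mir6970 had 0 and 1, and in Cmip Mir7077 had 2 and 3 counts while Mir7078 had 0 in both pups (pairs named after their values were seen).

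The pups were compared gene by gene over the 372 genes whose counts averaged 10 or more, with Fisher's exact test on the counts of 2 libraries, which has no replicate check. Of all genes tested, 2.69% passed at a Benjamini-Hochberg adjusted p under 0.05 with at least a 2-fold ratio. Among the 10 members with enough counts 0 passed, and 1 passed at an unadjusted p under 0.05. That member, Mir6944, was 1.81-fold higher in pup 1 after TMM scaling (95% counting interval 1.42 to 2.34-fold, log2 ratio of pup 3 to pup 1 -0.86, adjusted p = 1.72e-05 by Fisher's exact test). At any fold, 44.1% of all tested genes passed the adjusted test.

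For the other 9 tested members the interval of the ratio included equality. Log2 ratios ran from -0.61 for Mir6900 to 0.87 for Mir6935, where 6 and 16 counts gave an interval of 0.701 to 5.88-fold. Each of the 9 intervals also included a 2-fold ratio in 1 direction or the other, so a difference of that size was not excluded. Over all 178 members, 62 had more CPM in pup 1 and 62 in pup 3. Spearman's rho between the pups was 0.762 over all 178 and 0.645 over the 83 seen in both libraries. This is a correlation across genes of which most hold a few counts. The libraries also differed in 5 epithelial hairpins (Mir200a, Mir200b, Mir200c, Mir141 and Mir429), whose sum in pup 1 was 94.99 CPM while pup 3 had 594 CPM. The red cell hairpins Mir451a and Mir144 summed to 107 CPM in pup 1, against 60.1 CPM in pup 3. Mir451a had 202 counts in pup 1 and 99 in pup 3, the same direction as Mir6944. Mir144 went the other way, with 47 counts in pup 1 and 93 in pup 3. The part of either list in the pup differences of the members was not tested.

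**Figure D5:**
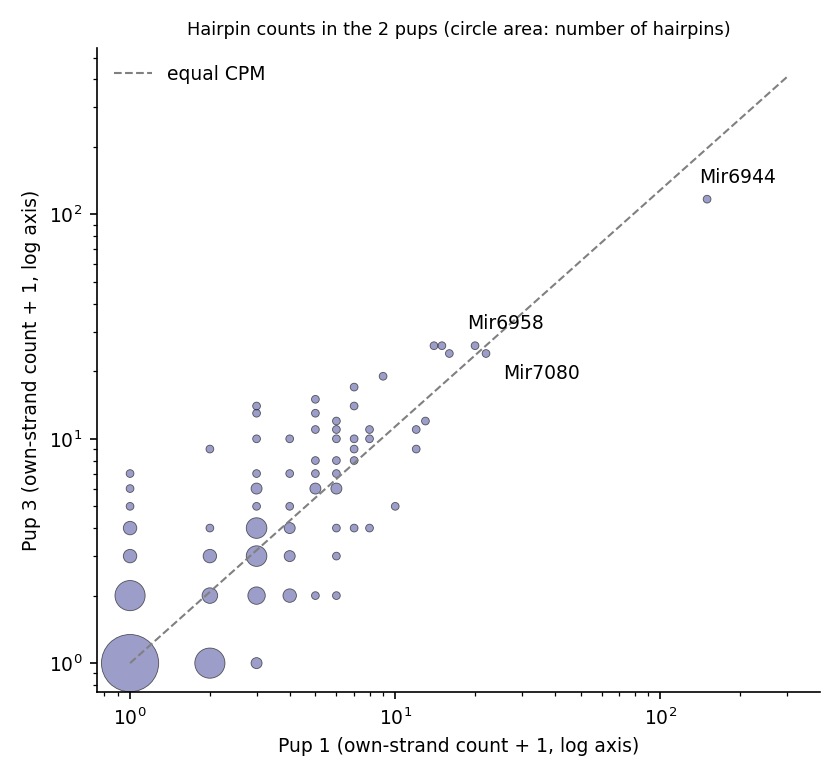
Own-strand counts plus 1 of the 178 hairpins in pup 1 and pup 3, both on log axes, with circle area for the number of hairpins at a point and a dashed line for equal CPM. Mir6944, at 149 and 116 counts, lies apart from the rest and below the line.

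Seeds were mostly different from hairpin to hairpin. The 312 annotated arms had 287 different seeds, and 21 seeds were shared by more than 1 arm, covering 46 arms in groups of at most 3. The seed CACCCUG joined miR-7018-3p, miR-7023-3p and miR-7068-3p, whose hairpins had 0, 2 and 9 counts in pup 1 and 1, 1 and 4 in pup 3. Seed GUGGGAG joined the 5p arms of Mir6922, Mir6993 and Mir7008, with 2, 3 and 2 counts in pup 1 and 1, 3 and 2 in pup 3. These 6 hairpins were named after their seeds and values were seen.

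A seed was shared with an arm outside the set in 49 of 312 arms (15.7%). Among the 15 most abundant members 4 arms did so, and the 5p arm of Mir6958 carries the UGGGAGA seed of the miR-30c-1 and miR-30c-2 3p arms. The 3p arm of Mir6897 shares GGUCUGU with miR-5106, and the 5p arm of Mir6945 shares CCUGGGA with miR-3474. The 5p arm of Mir7083 shares CGGGGCU with miR-12197-3p. No arm of Mir6944 shared its seed with an arm outside the set.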

How the data were processed

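Per the deposited description files, the authors quantified genes from alignments to mm10 with GENCODE M4. Which aligner and counter made them is "not given in the sources used here". The deposited values are whole-number counts in 3 columns, read from the values as either strand, own strand (used here) and opposite strand. Its 4 rows that name no gene, 57.2% of reads in pup 1 and 56.7% in pup 3, were left out of totals, and 0 columns of other samples were present. Reads that map to several places, 38.7% and 39.8%, enter no gene.

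Gene identifiers were matched without version to GENCODE M21 (GRCm38, the same assembly), which gave symbols for 1894 of 1973 genes. Splice classes used any same-strand intron, and hosts and distances the intron leaving the fewest bases outside the hairpin. Scaling was TMM (edgeR 4.0.16), with a prior count of 0.5. DESeq2 1.42.0 size factors were an alternative. Fisher's exact test (scipy 1.17.1) was adjusted over all tested genes and tested on simulated data. The simulation had counting error only, and its changed genes had more counts than most tested members and a larger fold than Mir6944. It therefore does not cover spread between animals or small changes at low counts. The count design had 1 group, so no edgeR model was fitted. Pups are labelled as separate animals, and tests of 2 libraries carry no replicate check.

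Named members are all with at least 10 counts in each library, filled to 15 by mean CPM from those seen in both. Members and lists were chosen with earlier results of these data known.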

Additional observations from a re-analysis of the deposited data

How the results depend on the processing

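Counts limit every value: most members held a few reads, so the number detected followed the limit used. It was 8 with 10 counts in each library, 24 with 5, 2 with 20, and 9 to 19 in a single library, the higher number without replicate 1, which leaves the deeper pup 3. The number seen ranged from 100 to 107 in a single library and was 124 with 1 count in either library. The share of counts was 0.0170% without Mir6944, 0.0262% of a total without the most abundant gene, and from 0.0212% to 0.0227% in a single library. With a 1.5-fold threshold 1 member, Mir6944, differed between the pups in place of 0, and with a tolerance of 10 bases 1 member in place of 7 lay away from both splice sites. In 21 settings, which include some of the values just given, these results stayed within 1.5 times or 1 SD. Either-strand counts, other scalings and a prior count of 2 were among them. No log2 ratio of a tested member changed sign. No paired analysis was possible because the series has 1 group.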

Other observations

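Splice-site hairpins were also found outside the numbered range. Of 41 such genes, 8 filled an intron, 29 touched the acceptor only and 4 the donor only, and 14 of the 41 were detected. Besides the earlier-numbered mirtrons, the whole introns of Arhgef17 (Mir3102, 170 counts in each pup), Baiap3 (Mir3547, 108 counts in pup 1 and 171 in pup 3) and Oaz1 (Mir1982, 11 and 22 counts) carried reads. Mir3102 had 63.0 ± 13.8 CPM and Mir3547 49.9 ± 5.17 CPM (SD, n = 2), next to 50.03 ± 19.4 CPM for Mir6944. Of the 8 whole-intron hairpins outside the range 6 were detected, against 3 of 15 within it. These genes were chosen by position after the counts were known, and the difference was not tested.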
